A study of Mus musculus with 90 samples.

Results

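Nuclear receptors are transcription factors that a small fat-soluble molecule switches or tunes, and 9 of them that steer lipid and drug metabolism are described here in mouse liver. They were chosen by symbol, and all 9 were found among the 27654 genes of the count tables: *Ppara*, *Ppard*, *Pparg*, *Rora*, *Nr1i2*, *Nr1i3*, *Rxra*, *Hnf4a* and *Esrra*. Most of the receptors bind DNA in pairs, and RXRα, the product of *Rxra*, is the shared partner of the 3 PPARs, of PXR (*Nr1i2*) and of CAR (*Nr1i3*). In liver, PPARα drives fat burning and ketone production during a fast, PPARγ is the regulator of fat storage that is abundant in adipose tissue, and PPARδ is a further fatty acid sensor. PXR and CAR sense drugs and bile acids and switch on cytochrome P450 genes, HNF4α keeps hepatocytes differentiated, RORα feeds into the circadian clock, and ERRα acts with the coactivator PGC-1α on mitochondrial genes.

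The study asked how the glucocorticoid receptor (GR, gene *Nr3c1*) of hepatocytes takes part in the response of the liver to caloric restriction. Poly(A) RNA of whole liver was sequenced in 90 libraries, each from a male C57BL/6J mouse that was 12 weeks old when its experiment began. Control mice (ctrl.) ate freely and had food only at night in the final week, while mice on caloric restriction (cal. res.) were brought to 40% less food, given at ZT12 when the lights went off (ZT is the time in h after lights on). In GR LKO mice Cre recombinase under the albumin promoter deletes a GR gene flanked by loxP sites (floxed), which limits the loss to hepatocytes. The WT mice compared with them carry the floxed gene without Cre. For corticosterone treatment the paper describes the mice as male C57BL/6J.

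The libraries fall into 3 experiments. In the time series, livers of both genotypes were taken at ZT0, ZT4, ZT8, ZT12, ZT16 and ZT20, giving 36 libraries on cal. res. and 42 on ctrl. Each of the 24 groups of that series held 3 mice, except that WT mice on ctrl. at ZT8, ZT12, ZT16 and ZT20 and GR LKO mice on ctrl. at ZT8 and ZT12 numbered 4. A separate diet experiment held 3 WT mice on cal. res. and 3 on ctrl. at ZT12, and a corticosterone experiment held 3 WT mice injected daily for 7 days with 5 mg/kg of the glucocorticoid (CORT) and 3 injected with vehicle, all on ctrl. and taken at ZT12. The 3 controls of the diet experiment carry the letters AL (ad libitum) in their titles and night-restricted feeding in their treatment labels. In the time series the diets were sequenced as separate sets of libraries, so the effect of diet was read from the diet experiment.

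Depth was the lowest in the time series on ctrl., where the libraries summed to between 10057544 and 17089004 counts with a median of 13427104. Libraries on cal. res. held 14235473 to 20788575 counts, those of the diet experiment 36442195 to 39492146, and those of the corticosterone experiment 13739631 to 16077943. Levels are given as CPM, counts scaled to a common library size by TMM, and changes as log2 fold changes of edgeR with their standard error (SE). A gene is called where its p, adjusted over all genes tested, lies under 0.05. All 9 members passed the filter on low counts in every comparison.

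The genotype label was checked on *Nr3c1*. At ZT12 on cal. res. it stood at 103, 98.1 and 104 CPM in WT livers and at 31.0, 32.2 and 30.8 CPM in GR LKO livers. On ctrl. it stood at 83.8, 89.0, 76.2 and 89.5 CPM in WT and at 19.0, 21.0, 20.3 and 25.2 CPM in GR LKO livers. Every GR LKO liver was below every WT liver, and *Nr3c1* was called lower at each of the 12 pairings of diet and time, with log2 changes between -2.06 and -1.70. The RNA is of whole liver, in which cells other than hepatocytes keep an intact gene. The source of the *Nr3c1* RNA that remained was not tested. Neither diet (log2 change -0.08, SE 0.06, adjusted p = 0.317) nor CORT (log2 change -0.06, SE 0.13, adjusted p = 0.808) was called for *Nr3c1* by edgeR. For diet it was called lower without TMM (log2 change -0.20, adjusted p = 0.0354) and higher with the time-series libraries (0.25, adjusted p = 0.0328; range over 5 settings 0.0328 to 0.448). The tissue label was checked on 7 hepatocyte markers, which together held 93552 to 99997 CPM in the control livers of the diet experiment, most of it albumin.

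A pair of libraries stood apart. Of 10 markers of the exocrine pancreas, 9 have counts, and their sum was 897 CPM in replicate 3 of WT on cal. res. at ZT12 and 456 CPM in replicate 2 of WT on ctrl. at ZT16. The highest of the other 88 libraries reached 2.96 CPM. The members' calls were counted again without both libraries. On cal. res. the members kept 5 calls for GR loss, and on ctrl. they went from 4 calls to 3, because *Pparg* at ZT16 was no longer called (log2 change 2.03, adjusted p = 0.0612). The calls of a daily rhythm went from 20 to 19, without that of *Nr1i2* in WT on cal. res. (adjusted p = 0.0814), and the rhythm differences from 5 to 4, without that of *Nr1i2* (adjusted p = 0.0508).

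How abundant each receptor was can be compared only per length of transcript. In the control livers of the diet experiment (n = 3), with each level divided by the length of the principal transcript, *Nr1i3* led with 187 ± 18.3 CPM per kb (mean ± SD), ahead of *Hnf4a* with 123 ± 19.2 and *Rxra* with 108 ± 3.02. *Nr1i2* (37.5 ± 3.34), *Ppara* (37.3 ± 5.29), *Rora* (24.0 ± 1.46) and *Esrra* (20.4 ± 2.12) came next. *Pparg* (4.48 ± 1.78) and *Ppard* (1.97 ± 0.122 CPM per kb) were the scarcest. So CAR, the receptor of hepatocyte identity and the shared partner stood at the top, PXR in the middle and the fat-storage receptor near the bottom. The neighbours *Hnf4a* and *Rxra*, *Nr1i2* and *Ppara*, and *Rora* and *Esrra* overlapped in their ranges. Within the same liver *Hnf4a* was above *Rxra* and *Rora* above *Esrra* in 3 of 3 livers, and *Nr1i2* above *Ppara* in 2 of 3. The order depends on the transcript chosen: with the longest coding transcript, *Nr1i3* fell behind *Hnf4a* and *Rxra* (88.8, 123 and 108 CPM per kb), and *Rora* to 5.73 CPM per kb. On cal. res. at ZT12 *Nr1i3* (235 ± 53.6 CPM per kb) and *Hnf4a* (200 ± 35.2) overlapped at the top, *Rora* (55.3 ± 6.77) overlapped with *Nr1i2* (50.2 ± 4.89), and *Pparg* (1.78 ± 0.348) came last, below *Ppard* (2.33 ± 0.233).

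Caloric restriction at ZT12 in WT liver changed 5 of the 9 receptors, 3 upward and 2 downward. That share reads against a broad response, since 47.1% of the 13062 genes tested were called, 23.5% higher and 23.6% lower. The median log2 change was 0.24 over the members and 0.00 over all genes tested. In whole liver, fewer cells of a type and less RNA per cell cannot be told apart. The shared partner *Rxra* stood at 526, 513 and 543 CPM on ctrl. and at 409, 448 and 407 CPM on cal. res. All 3 restricted livers lay below all 3 control livers, a log2 change of -0.33 (SE 0.07, adjusted p = 0.00955).

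Of the fatty acid receptors, *Pparg* was the member with the largest fall. Its level was 8.14, 11.0 and 4.68 CPM in the control livers and 3.70, 3.28 and 2.48 CPM in the restricted livers. The groups did not overlap, though the controls spread widely, and the log2 change was -1.33 (SE 0.31, adjusted p = 0.0116). At ZT12 in the WT livers of the time series, where diet and library set cannot be told apart, the change was about as large (log2 -1.29) and was not called (adjusted p = 0.0701). *Ppara*, at 106 to 138 CPM on ctrl. and 141 to 151 CPM on cal. res., was not called (log2 change 0.19, SE 0.11, adjusted p = 0.183). *Ppard*, at 6.02 to 6.77 CPM and 7.10 to 8.50 CPM, was not called either (log2 change 0.24, SE 0.11, adjusted p = 0.127). Both were higher in every restricted liver than in every control liver. With the ZT12 libraries of the time series *Ppara* was called higher (log2 change 0.85, adjusted p = 0.00518) and *Ppard* turned to lower (log2 change -0.71, adjusted p = 0.0148).

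*Rora*, whose product drives clock genes such as *Arntl* through the elements that REV-ERB also binds, rose the most. It stood at 62.2, 58.6 and 66.2 CPM on ctrl. and at 129, 139 and 163 CPM on cal. res. All 3 restricted livers lay far above all 3 control livers, and the log2 change was 1.2002 (SE 0.10, adjusted p = 0.000300). *Hnf4a*, the receptor of hepatocyte identity, went from 519, 464 and 629 CPM to 700, 909 and 999 CPM. Again no restricted liver was as low as a control liver, and the log2 change was 0.69 (SE 0.16, adjusted p = 0.0109).

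Of the drug sensors, *Nr1i2* stood at 87.9, 94.8 and 105 CPM on ctrl. and at 141, 117 and 126 CPM on cal. res. The groups did not overlap, and the rise was small (log2 change 0.42, SE 0.10, adjusted p = 0.0117). *Nr1i3* ranged from 242 to 293 CPM and from 253 to 404 CPM, so its groups overlapped and it was not called (log2 change 0.33, SE 0.17, adjusted p = 0.149). Without replicate 3 on cal. res., *Nr1i3* was called (log2 change 0.50, adjusted p = 0.0195; range over the 6 fits with a library left out 0.0195 to 0.371). *Esrra* overlapped too, at 42.3 to 51.1 CPM and 41.3 to 47.1 CPM (log2 change -0.03, SE 0.10, adjusted p = 0.834). With the time-series libraries at ZT12 it was called lower (log2 change -0.85, adjusted p = 0.0178; range over 5 settings 0.0178 to 0.889). The 5 called receptors stayed called in 6 of 6 fits with 1 library left out.

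**Figure D1:**
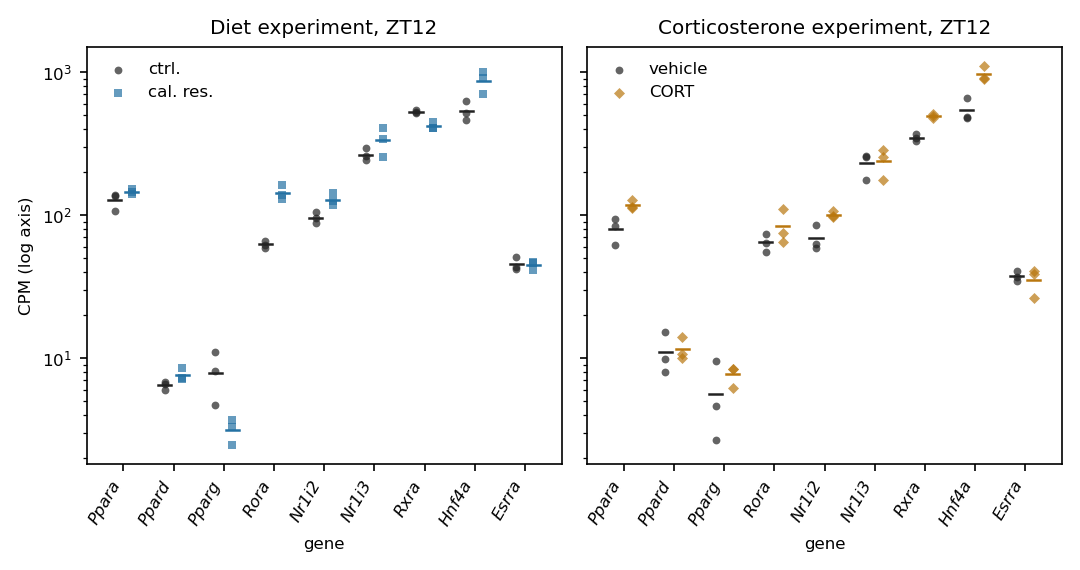
CPM of the 9 receptors in each liver of the diet experiment and of the corticosterone experiment at ZT12 (points, 3 livers a group; log axis), with the mean of each group as a line. *Rora* and *Hnf4a* sit higher and *Pparg* and *Rxra* lower in all 3 restricted livers than in all 3 controls, and *Rxra* and *Hnf4a* sit higher in all 3 CORT livers than in all 3 vehicle livers.

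Around these receptors stand their relatives, their coregulators and their target genes. Their counts for diet read against the 23.5% of all genes tested that were called higher and the 23.6% called lower. Of 40 other nuclear receptors 30 were tested for diet, and 9 rose and 6 fell (median log2 change 0.09). The liver receptor *Nr5a2*, a regulator of bile acid and lipid genes, changed by 0.98 on the log2 scale (SE 0.08, adjusted p = 0.000300), the orphan *Nr6a1* by 1.07 (adjusted p = 0.000229), the clock repressor *Nr1d1* by -2.13 (adjusted p = 0.00169) and the mineralocorticoid receptor *Nr3c2* by -1.60 (adjusted p = 7.66e-05). Of 22 coregulators 12 rose and 1 fell (median 0.29). *Ppargc1a*, the gene of PGC-1α, rose from 16.8 to 64.6 CPM (log2 change 1.94, SE 0.10, adjusted p = 6.40e-05) and the acetyltransferase gene *Crebbp* rose by 0.92 (adjusted p = 0.000413), while the deacetylase gene *Hdac3* fell by 0.37 (adjusted p = 0.00676). With the time-series libraries *Hdac3* was not called and hardly differed (log2 change -0.04, adjusted p = 0.799; range over 5 settings 0.000671 to 0.799). With those libraries the log2 changes of *Nr5a2* (0.47), *Crebbp* (0.50), *Nr1d1* (-1.09) and *Nr3c2* (-0.97) were smaller but still called.

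The targets of the PPARs went both ways, beside 23.5% of all genes tested called higher for diet and 23.6% called lower. Of 27 PPARα targets tested, 7 rose and 9 fell (median log2 change -0.15). The fatty acid hydroxylase gene *Cyp4a14* went from 103 to 2508 CPM (log2 change 4.60, SE 0.41, adjusted p = 0.000341) and *Angptl4*, an inhibitor of lipoprotein lipase, rose by 1.37 (adjusted p = 0.000946), whereas the fatty acid carrier *Fabp1* fell by 1.75 (adjusted p = 0.000300) and the fasting factor *Creb3l3* by 0.60 (adjusted p = 0.00156). Of 8 PPARγ targets tested, 1 rose and 3 fell (median -0.71). The carrier *Fabp4*, which is also on the list of adipocyte markers, rose by 1.12 (adjusted p = 0.00491), and the lipid droplet gene *Cidec* fell by 1.73 (adjusted p = 0.00312) and the carrier *Fabp2* by 1.53 (adjusted p = 0.000528). *Cidec* was not called with the time-series libraries (log2 change -0.96, adjusted p = 0.142; range over 5 settings 5.26e-07 to 0.142). With those libraries the log2 change of *Fabp2* was -0.85 and that of *Cyp4a14* 6.70, both still called. Over 5 settings the log2 change of *Creb3l3* lay between -0.73 and -0.32, and it was called in 5 of 5. Adipocyte markers, of which 2 of 8 passed the filter, were 1 higher and 1 lower, and their summed level was 1155 CPM on ctrl. and 150 CPM on cal. res., nearly all of it *Car3*. *Plin1* was at 0 in all 90 libraries, *Lep* in 89, *Retn* in 63, *Adipoq* in 62, *Cfd* in 49 and *Cidea* in 29, while *Car3* and *Fabp4* were counted in every library. The part of adipocytes in the result was not tested.

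The PXR and CAR targets were the list with the highest median, 0.84. The lists were chosen with earlier results of these data known, so their order is a description only. Of 25 tested, 17 rose and 5 fell, beside 23.5% of all genes tested called higher and 23.6% called lower. *Cyp2b9*, a cytochrome P450 gene, went from 0.266 to 311 CPM (log2 change 10.16, SE 0.32, adjusted p = 1.69e-05) and the sulfotransferase gene *Sult1d1* from 111 to 494 CPM (log2 change 2.16, adjusted p = 0.000129), while *Alas1*, of haem synthesis, fell by 1.29 (adjusted p = 0.000237) and *Cyp1a2* by 1.78 (adjusted p = 0.00277). The call of *Alas1* was lost with the time-series libraries (adjusted p = 0.123; range over 5 settings 8.90e-31 to 0.123), and the log2 change of *Cyp2b9* was 10.83 without replicate 2 on ctrl. Of 24 HNF4α targets 5 rose and 6 fell (median 0.11), beside 47.1% of all genes called in either direction. The tyrosine-degrading enzyme gene *Tat* rose by 2.96 (adjusted p = 0.000122) and *Pck1*, of gluconeogenesis, by 1.43 (adjusted p = 0.000237), and *Cyp2d9* fell by 2.92 (adjusted p = 6.25e-05). With the time-series libraries the log2 changes of *Tat* (1.505), *Pck1* (0.75), *Cyp2d9* (-1.302), *Sult1d1* (1.70) and *Cyp1a2* (-0.87) were smaller but still called.

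Of 14 RORα targets tested, 7 rose and 4 fell (median 0.48), beside 23.5% of all genes called higher and 23.6% called lower. The clock repressor *Cry1* rose from 9.65 to 61.5 CPM (log2 change 2.67, adjusted p = 4.93e-05) and *Nfil3*, a repressor of clock output genes, by 2.12 (adjusted p = 0.000263), while the oxysterol hydroxylase gene *Cyp7b1* fell by 2.97 (adjusted p = 0.000128). Of 24 ERRα targets 6 rose and 0 fell in the edgeR test (median 0.13), beside the same shares of 23.5% and 23.6% of all genes. *Pdk4*, which blocks pyruvate oxidation, went from 2.68 ± 0.284 to 123 ± 121 CPM (log2 change 5.53, SE 0.77, adjusted p = 0.00149), and *Mdh2*, of the citric acid cycle, rose by 0.51 (adjusted p = 0.00181). The restricted livers were thus very uneven in *Pdk4*, and without replicate 3 on cal. res. its log2 change was 4.34. *Mdh2* was not called with the time-series libraries (log2 change 0.12, adjusted p = 0.269; range over 5 settings 6.33e-09 to 0.269). With those libraries the log2 changes of *Cry1* (1.82), *Cyp7b1* (-2.51) and *Pdk4* (4.29) were smaller but still called. Of the genes in these lists of relatives, coregulators and targets, 9 stand in more than 1. Marker lists share further genes with them. *Apoa1*, *Ttr* and *Serpina1a* are both HNF4α targets and hepatocyte markers. *Fabp4*, *Cfd*, *Cidea*, *Plin1* and *Adipoq* are both PPARγ targets and adipocyte markers. Marker sums of other cells moved as well. Lymphocyte markers summed to 1.93 to 3.58 CPM on ctrl. and 0.711 to 0.909 CPM on cal. res., and neutrophil markers to 0.325 to 0.658 CPM and 0.171 to 0.273 CPM, without overlap. Further, 4 of 6 endothelial and 3 of 6 stellate markers were called higher, and so were 3 of 7 hepatocyte markers, whose sum was 96625 CPM on ctrl. and 167316 CPM on cal. res. Their part in the results was not tested.

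Daily CORT at ZT12 raised *Rxra* and *Hnf4a*, 2 of the 9 receptors, against 8.11% of 11523 genes tested. Called higher were 4.47% of all genes and called lower 3.64%, and no member was called lower. The question here was what a raised glucocorticoid level does without restriction of food. *Rxra* stood at 344, 331 and 367 CPM with vehicle and at 511, 479 and 492 CPM with CORT. *Hnf4a* stood at 654, 483 and 478 CPM with vehicle and at 904, 1103 and 890 CPM with CORT. In both, all 3 CORT livers were above all 3 vehicle livers, and the log2 changes were 0.51 (SE 0.09, adjusted p = 0.0179) for *Rxra* and 0.84 (SE 0.16, adjusted p = 0.0229) for *Hnf4a*.

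Both calls rest on few livers. Leaving out 1 library ended the call of *Rxra* without vehicle replicate 1 (adjusted p = 0.0707) or 2 (0.0903), or CORT replicate 1 (0.0657) or 3 (0.0558). It ended the call of *Hnf4a* without vehicle replicate 2 (adjusted p = 0.101) or 3 (0.0783), or CORT replicate 1 (0.0576) or 3 (0.0524). Each therefore stayed called in 2 of 6 such fits, while the log2 change kept between 0.47 and 0.55 for *Rxra* and between 0.73 and 1.00 for *Hnf4a*. A fit with replicate number as a block also missed the threshold for both (adjusted p = 0.0616 and 0.0611; ranges over 4 settings 1.79e-06 to 0.0616 and 8.41e-06 to 0.0611).

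*Ppara* and *Nr1i2* lay near the threshold. *Ppara* ranged from 61.4 to 93.8 CPM with vehicle and from 113 to 127 CPM with CORT (log2 change 0.56, SE 0.16, adjusted p = 0.0735), and *Nr1i2* from 58.8 to 85.4 CPM and from 96.3 to 107 CPM (log2 change 0.54, SE 0.15, adjusted p = 0.0692). Neither overlapped between the groups, and DESeq2 called both (adjusted p = 0.0143 and 0.0149; ranges over 4 settings 0.0143 to 0.1103 and 0.0149 to 0.104). *Nr1i2* was also called without vehicle replicate 1 (log2 change 0.72, adjusted p = 0.0256). The other 5 receptors overlapped between the groups, with log2 changes from -0.09 for *Esrra* to 0.45 for *Pparg*. The median log2 change was 0.45 over the members and -0.01 over all genes tested.

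The relatives and targets were counted for CORT beside the 8.11% of all genes called. Of 27 other nuclear receptors tested 0 rose and 2 fell in edgeR: *Nr2f2*, by 1.33 on the log2 scale (SE 0.18, adjusted p = 0.00906), and *Rarb*, a receptor of retinoic acid (log2 change -2.13, adjusted p = 0.0462). Of 21 coregulators 4 rose (median 0.40), among them *Ppargc1b* by 1.23 (adjusted p = 0.0196) and *Kat2b* by 0.52 (adjusted p = 0.0285). PPARα targets split into 2 higher and 2 lower of 26 (median -0.02): *Angptl4* rose from 30.5 to 145 CPM (log2 change 2.25, adjusted p = 0.00128) and *Cpt1a*, the gate of fat into mitochondria, by 0.83 (adjusted p = 0.0293), and *Pdk4* fell by 1.37 (adjusted p = 0.0194) and *Plin2* by 0.86 (adjusted p = 0.0470). None of 6 PPARγ targets tested was called (median -0.21). Of 23 PXR and CAR targets 6 rose, among them *Gadd45b* (0.429 to 8.43 CPM, log2 change 4.28, adjusted p = 0.000915) and *Alas1* (372 to 1415 CPM, log2 change 1.93, adjusted p = 0.00456).

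Of 24 HNF4α targets 2 rose and 1 fell with CORT (median 0.06). *Tat*, a classical glucocorticoid-inducible gene, went from 1759 to 4494 CPM (log2 change 1.35, adjusted p = 0.00774), *Pck1* from 828 to 5085 CPM (log2 change 2.62, adjusted p = 0.0124), and *Otc*, of the urea cycle, fell by 0.41 (adjusted p = 0.0431). Of 13 RORα targets 1 fell (median -0.34) and of 23 ERRα targets 1 fell (median -0.11), which were *Plin2* and *Pdk4* again. The calls of *Angptl4*, *Gadd45b*, *Alas1*, *Tat* and *Nr2f2* held in 6 of 6 fits with 1 library left out. The others were lost without the replicates named here, with adjusted p in brackets. They were *Pck1* (vehicle 3 [0.0503]), *Cpt1a* (vehicle 2 [0.0972], CORT 1 [0.0711], 2 [0.0547], 3 [0.0804]) and *Ppargc1b* (vehicle 1 [0.0576], 2 [0.0845], 3 [0.0613], CORT 3 [0.0571]). *Rarb* (vehicle 1 [0.124], 2 [0.125], CORT 1 [0.0665], 2 [0.0891], 3 [0.121]), *Kat2b* (vehicle 1 [0.0572], 2 [0.106], 3 [0.0718], CORT 1 [0.0885], 3 [0.0719]) and *Pdk4* (vehicle 1 [0.0576], 2 [0.0835], 3 [0.0650], CORT 1 [0.0667], 3 [0.0513]) kept their call in 1 of 6 fits each, as did *Plin2* (vehicle 1 [0.101], 2 [0.120], 3 [0.131], CORT 1 [0.101], 2 [0.0876]), and *Otc* in 0 of 6 (vehicle 1 [0.135], 2 [0.0886], 3 [0.111], CORT 1 [0.120], 2 [0.0578], 3 [0.0919]). Other settings also ended some of these calls: the block those of *Ppargc1b* (adjusted p = 0.0650; range over 4 settings 0.00101 to 0.0650), *Cpt1a* (0.0560; 5.86e-05 to 0.0560) and *Otc* (0.0876; 0.00180 to 0.0876), no filter that of *Otc* (0.0604), and no TMM that of *Kat2b* (0.0574; 0.00149 to 0.0574).

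Markers of other cells moved with CORT as well. Of 8 Kupffer and myeloid markers 2 were called higher, with a sum of 80.3 to 110 CPM with vehicle and 114 to 165 CPM with CORT, and of 6 endothelial markers 1 was called lower, with sums of 95.2 to 120 CPM and 77.2 to 92.3 CPM. Neither sum overlapped between the groups. Neutrophil markers summed to 0.0719 to 0.621 CPM and 1.57 to 2.30 CPM, and 1 of 6 stellate cell markers was called lower. Sums that were lower with CORT without overlap were those of adipocyte markers (2559 to 3325 and 1227 to 1745 CPM), erythrocyte markers (632 to 785 and 301 to 559 CPM) and lymphocyte markers (0.863 to 2.67 and 0.485 to 0.684 CPM). *Car3* makes up most of the adipocyte sum. The 7 hepatocyte markers gave 0 calls in edgeR, with mean sums of 106154 and 104200 CPM. Their part in the results was not tested.

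Among the members, loss of GR from hepatocytes was called most often for *Pparg*, always upward. On cal. res. the members called at ZT0, ZT4, ZT8, ZT12, ZT16 and ZT20 numbered 1, 0, 1, 2, 1 and 0 of 9, against 0.502%, 0.69%, 2.55%, 15.3%, 4.54% and 1.47% of all genes tested. On ctrl. they numbered 0, 0, 1, 2, 1 and 0 of 9, against 0.536%, 0.195%, 1.43%, 2.08%, 1.98% and 0.42%. By edgeR, 5 of 54 tests on cal. res. and 4 of 54 on ctrl. were called, and 7 of these 9 calls were *Pparg* and the other 2 *Hnf4a* at ZT12. The mean of *Pparg* was higher in GR LKO than in WT livers at 6 of 6 time points on either diet. PPARγ is abundant in adipose tissue, and the sum of 8 adipocyte markers, most of it *Car3*, was also higher in GR LKO livers at 6 of 6 time points on either diet, without overlap at 6 on cal. res. (at ZT8, 215 to 781 CPM in WT and 2668 to 3123 CPM in GR LKO livers) and at 5 on ctrl. Over all libraries *Car3* averaged 3284 CPM, while the next marker, *Fabp4*, averaged 5.76 CPM and *Adipoq* 0.048 CPM. The sum therefore follows *Car3* and says little about the other markers. The part of adipocytes in the result was not tested.

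At ZT12 on cal. res. *Pparg* stood at 5.09, 3.05 and 1.47 CPM in WT and at 32.8, 25.9 and 32.1 CPM in GR LKO livers. The lowest GR LKO liver thus held several times the level of the highest WT liver, and the log2 change was 3.25 (SE 0.36, adjusted p = 0.00186). The call held in 6 of 6 fits with 1 library left out, and without WT replicate 3, the library with pancreas markers, the log2 change was 2.87. At ZT16 the means ± SD were 4.37 ± 1.85 CPM in WT livers and 18.0 ± 0.793 CPM in GR LKO livers (n = 3 each; log2 change 2.02, SE 0.28, adjusted p = 0.00833), and this call held in 6 of 6 fits as well.

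The other time points on cal. res. went the same way with less certainty. *Pparg* was called at ZT0 (6.96 ± 1.31 CPM in WT, 16.8 ± 2.94 CPM in GR LKO, log2 change 1.28, adjusted p = 0.0432) and at ZT8 (9.54 ± 3.35 and 28.4 ± 8.87 CPM, log2 change 1.57, adjusted p = 0.0463). In edgeR it was not called at ZT4 (6.19 ± 3.31 and 20.7 ± 2.76 CPM, log2 change 1.73, adjusted p = 0.0841) or at ZT20 (6.53 ± 2.18 and 15.8 ± 5.63 CPM, log2 change 1.299, adjusted p = 0.105). At each of the 6 time points no GR LKO liver was as low as a WT liver of that time. At ZT0 the call held only without GR LKO replicate 1 and was lost without WT replicate 1 (adjusted p = 0.127), 2 (0.119) or 3 (0.0920) or GR LKO replicate 2 (0.161) or 3 (0.133). At ZT8 it was lost without any of WT replicates 1 to 3 (adjusted p = 0.0972, 0.0594 and 0.0724) and GR LKO replicates 1 to 3 (0.0833, 0.131 and 0.134). At ZT4 it was gained without WT replicate 1 (log2 change 2.25, adjusted p = 0.0245). With replicate number as a block the calls at ZT0 (adjusted p = 0.118) and ZT8 (0.130) were lost and ZT20 was called (0.0461), and in 1 fit over all libraries of the diet the call at ZT0 was lost (0.0914) and those at ZT4 (0.00802) and ZT20 (0.0285) were gained. DESeq2 called ZT4 (3.78e-05) and ZT20 (0.00432) too. Over 5 settings adjusted p ranged from 1.74e-06 to 0.118 at ZT0, from 3.78e-05 to 0.186 at ZT4, from 9.26e-06 to 0.130 at ZT8 and from 0.00432 to 0.104 at ZT20.

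On ctrl., *Pparg* at ZT12 stood at 9.28, 8.52, 3.23 and 10.1 CPM in WT and at 20.6, 23.7, 36.6 and 19.2 CPM in GR LKO livers. The groups did not overlap, and the log2 change was 1.69 (SE 0.33, adjusted p = 0.0368). It was called at ZT8 too (15.5 ± 2.74 and 25.9 ± 2.46 CPM, n = 4 each, log2 change 0.75, adjusted p = 0.0265) and at ZT16 (6.17 ± 2.21 CPM, n = 4, and 23.6 ± 7.22 CPM, n = 3, log2 change 1.93, adjusted p = 0.0254), again without overlap. At ZT4 the groups also did not overlap (10.6 ± 0.610 and 23.4 ± 7.68 CPM, log2 change 1.15, adjusted p = 0.146), and DESeq2 called it (0.00134; range over 5 settings 0.00134 to 0.248). They overlapped at ZT0 (12.9 ± 3.35 and 19.2 ± 5.77 CPM, log2 change 0.57, adjusted p = 0.368) and ZT20 (7.94 ± 4.37 and 16.2 ± 2.22 CPM, log2 change 1.04, adjusted p = 0.323).

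The calls of *Pparg* on ctrl. depend on single livers and on the fit, while its direction did not change. At ZT12 the call was kept only without WT replicate 3, the lowest liver, and was lost without WT replicate 1 (adjusted p = 0.0676), 2 (0.0995) or 4 (0.0582) or GR LKO replicate 1 (0.0732), 2 (0.0806), 3 (0.0763) or 4 (0.0608). At ZT8 it was lost without WT replicate 1 (adjusted p = 0.0515), 2 (0.0531) or 4 (0.0617) or GR LKO replicate 1 (0.0629), 2 (0.0750) or 4 (0.0820). At ZT16 it was lost without WT replicate 2, the library with pancreas markers (adjusted p = 0.0612), WT replicate 3 (0.0522) or GR LKO replicate 1 (0.0762) or 3 (0.0722). Over these fits the log2 change lay between 0.64 and 0.82 at ZT8, 1.43 and 1.84 at ZT12 and 1.67 and 2.12 at ZT16. With replicate number as a block all 3 calls were lost (adjusted p = 0.0828 at ZT8, 0.180 at ZT12 and 0.0591 at ZT16), and in 1 fit over all libraries of the diet that at ZT8 was lost (0.442). Over the settings adjusted p ranged from 6.39e-05 to 0.442 at ZT8, from 4.79e-05 to 0.180 at ZT12 and from 4.69e-07 to 0.0612 at ZT16.

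*Hnf4a* went the other way at ZT12. On cal. res. it stood at 907, 975 and 1006 CPM in WT and at 671, 642 and 726 CPM in GR LKO livers. On ctrl. it stood at 588, 716, 706 and 653 CPM in WT and at 480, 494, 416 and 524 CPM in GR LKO livers. On both diets every GR LKO liver was below every WT liver, and the log2 changes were -0.51 (SE 0.09, adjusted p = 0.00945) and -0.48 (SE 0.09, adjusted p = 0.0370). The call on cal. res. held in 6 of 6 fits with 1 library left out. On ctrl. it was kept without WT replicate 1 or GR LKO replicate 4 and lost without WT replicate 2 (adjusted p = 0.111), 3 (0.107) or 4 (0.0746) or GR LKO replicate 1 (0.107), 2 (0.0833) or 3 (0.0743), and it was lost as well without TMM (log2 change -0.38, adjusted p = 0.0830) and with the block (-0.48, adjusted p = 0.130; range over 5 settings 6.05e-05 to 0.130). At the other time points *Hnf4a* had lower GR LKO means at 4 of 5 on cal. res. and 5 of 5 on ctrl., and edgeR called none of them in its fits of each time point. The groups did not overlap at ZT8 and ZT20 on cal. res. and at ZT20 on ctrl. On cal. res. DESeq2 called *Hnf4a* at ZT8 (log2 change -0.26, adjusted p = 0.00771; range over 5 settings 0.00771 to 0.337) and ZT20 (-0.32, adjusted p = 0.00966; range 0.00966 to 0.173), and 1 fit over the diet called it at ZT20 (adjusted p = 0.0143).

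The remaining 7 receptors were not called by edgeR in the fit of any of the 12 pairings. At ZT12 on cal. res. 5 of 9 members had an unadjusted p under 0.05 in edgeR, beside 3642 of 11759 genes tested. The share of all genes whose groups did not overlap is not given in this report. Without overlap but not called were *Nr1i3*, from 457 to 513 CPM in WT and from 551 to 704 CPM in GR LKO livers (log2 change 0.40, SE 0.11, adjusted p = 0.0530), *Ppara*, from 166 to 190 CPM and from 205 to 227 CPM (log2 change 0.27, SE 0.09, adjusted p = 0.0826), and *Nr1i2*, from 151 to 154 CPM and from 114 to 134 CPM (log2 change -0.31, SE 0.08, adjusted p = 0.0511). *Nr1i3* was called without GR LKO replicate 3 (log2 change 0.50, adjusted p = 0.0345; range over 6 fits 0.0345 to 0.137), by DESeq2 (0.00352) and without TMM (0.0125; range over 6 settings 0.00352 to 0.143). *Ppara* was called by DESeq2 (adjusted p = 0.0220) and without TMM (0.0137; range over 6 settings 0.0137 to 0.233), and *Nr1i2* by DESeq2 (0.0104; range over 6 settings 0.0104 to 0.235). *Nr1i2* on ctrl. at ZT12 had a log2 change of -0.57 (SE 0.17, adjusted p = 0.164) with overlapping groups, and was called without GR LKO replicate 3 (adjusted p = 0.0441), with DESeq2 (0.0345) and in 1 fit over all libraries of the diet (0.0105; range over 5 settings 0.0105 to 0.279). On cal. res. DESeq2 made 18 calls in 54 tests where edgeR made 5. The share of all genes that DESeq2 called was not counted, so the 18 cannot be read against it. Of the 18, 6 were *Pparg*, so *Pparg* was then a minority. *Ppara* (ZT4, ZT8 and ZT12) and *Hnf4a* had 3 each, *Nr1i2* (ZT12 and ZT16) and *Nr1i3* (ZT12 and ZT20) 2 each, and *Esrra* (ZT4) and *Ppard* (ZT16) 1 each. At ZT20 *Nr1i3* was lower without GR, opposite to ZT12 (DESeq2 log2 change -0.38, adjusted p = 0.0488). In edgeR the ZT20 change was -0.37 (SE 0.11, adjusted p = 0.156), and the groups did not overlap. The mean of *Nr1i3* on cal. res. was lower in GR LKO livers at 5 of 6 time points. In 1 fit over the diet *Ppara* was called at ZT4 (adjusted p = 0.0220; range over 5 settings 0.0123 to 0.266) and ZT8 (0.0277; range 0.00977 to 0.204), and at ZT8 also without WT replicate 1 (0.0460).

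*Ppard* on cal. res. had its widest gaps at night. At ZT16 it was at 15.4 to 33.2 CPM in WT livers and 7.25 to 15.0 CPM in GR LKO livers (log2 change -1.14, SE 0.35, adjusted p = 0.124), and at ZT20 at 35.9 to 48.0 CPM and 23.7 to 31.9 CPM (log2 change -0.51, SE 0.16, adjusted p = 0.152). In each case the groups did not overlap and the edgeR test did not call it. At ZT16 it was called under 3 of 5 other settings, DESeq2 (adjusted p = 0.00913), the replicate block (0.0172) and 1 fit over all libraries of the diet (0.00179), with a range over the 5 of 0.00179 to 0.140. *Esrra* on cal. res. at ZT4 was at 22.3 to 31.4 CPM in WT livers and 14.01 to 18.6 CPM in GR LKO livers (log2 change -0.74, SE 0.16, adjusted p = 0.117), and DESeq2 called it (0.00585; range over 5 settings 0.00585 to 0.237). On ctrl. the groups of *Esrra* did not overlap at 3 of 6 time points, a count with no share of all genes beside it, and edgeR called none. The log2 changes there were 0.32 at ZT0, -0.25 at ZT4 and -0.22 at ZT20. *Nr1i2* at ZT16 on cal. res. was higher without GR, opposite to ZT12, at 64.4 to 78.3 CPM in WT and 96.4 to 99.7 CPM in GR LKO livers (log2 change 0.42, SE 0.10, adjusted p = 0.0594). It was called by DESeq2 (0.00596), without TMM (0.0424) and in 1 fit over the diet (0.0490; range over 5 settings 0.00596 to 0.129). *Rora* and *Rxra* had log2 changes from -0.33 to 0.30 for *Rora* and from -0.24 to 0.15 for *Rxra* over both diets, and 1 fit over the diet called *Rora* lower at ZT12 on cal. res. (log2 change -0.33, adjusted p = 0.0489; range over 6 settings 0.0489 to 0.505).

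**Figure D2:**
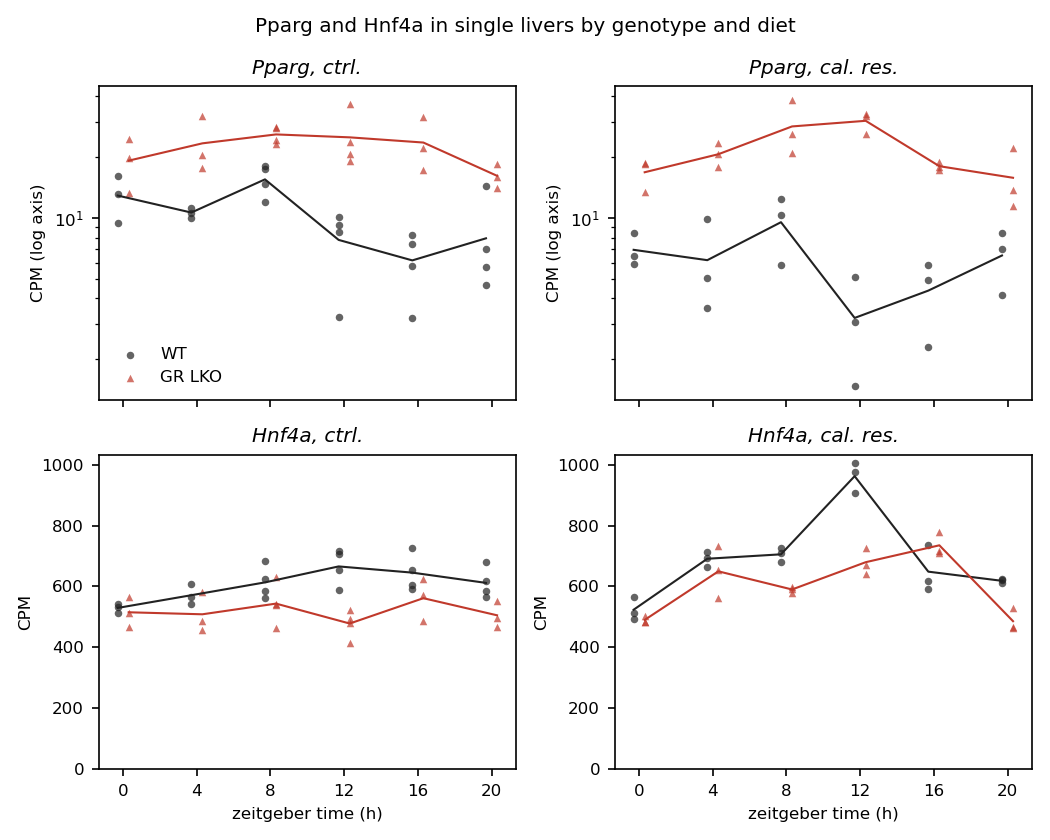
CPM of *Pparg* (log axis) and *Hnf4a* over the 6 time points in WT and GR LKO livers on each diet (points are single livers, lines join the group means). The mean of *Pparg* is higher in GR LKO livers at 6 of 6 time points on either diet, while *Hnf4a* parts from WT downward at ZT12.

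Whether GR loss acted differently on the diets was asked with an interaction term in edgeR, on the same libraries. At ZT0, ZT4, ZT8, ZT12, ZT16 and ZT20 edgeR called 0 of 9 members each time, against 0%, 0%, 0.081%, 1.01%, 0.234% and 0% of all genes tested. At an unadjusted p under 0.05 the members numbered 2, 1, 1, 2, 3 and 1 of 9, beside 1266 of 12455, 746 of 12362, 1043 of 12345, 1742 of 12225, 1306 of 12385 and 878 of 12599 genes, and DESeq2 called 0 of 54 as well. For *Pparg* at ZT12, where the log2 changes were 3.25 on cal. res. and 1.69 on ctrl., the difference was 1.57 on the log2 scale (SE 0.55, unadjusted p = 0.0137, adjusted p = 0.211). For *Hnf4a* at ZT12 the difference was -0.02 (SE 0.13, adjusted p = 0.978).

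At ZT12 on cal. res., 7.42% of 11759 genes tested were called higher and 7.84% lower without GR, and at ZT12 on ctrl. 0.814% and 1.27% of 11428. The members counted 1 higher (*Pparg*) and 1 lower (*Hnf4a*) on each diet, with medians of 0.13 and -0.15 beside 0.00 over all genes. Of 30 other nuclear receptors tested on cal. res. 9 were higher and 3 lower (median 0.23), among them the clock repressor *Nr1d1* (log2 change 1.29, adjusted p = 0.000749) and the immediate early receptor *Nr4a1* (1.83, adjusted p = 0.0113). In 1 fit over all libraries of the diet *Nr4a1* was not called (adjusted p = 0.246; range over 6 settings 7.54e-06 to 0.246). On ctrl. 1 of 27 was called, which was *Nr3c1* itself. Of 21 coregulators on cal. res. 1 was higher and 7 lower (median -0.20): *Lpin1* went from 604 to 36.8 CPM (log2 change -4.04, SE 0.42, adjusted p = 0.00149), *Ppargc1a* from 63.1 to 32.3 CPM (-0.97, adjusted p = 0.00732) and *Tbl1x* from 49.98 to 69.9 CPM (0.48, adjusted p = 0.0202). The call of *Tbl1x* was lost without some replicates, WT 3 being the library with pancreas markers (adjusted p in brackets: WT 2 [0.0677], 3 [0.0775], GR LKO 1 [0.0509], 3 [0.0626]). On ctrl. edgeR called 0 of 21 coregulators.

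Beside the higher *Pparg*, its targets had medians of 0.95 on cal. res. and 0.79 on ctrl. at ZT12. Of 8 tested on cal. res. 2 were higher, the fatty acid importer *Cd36* with 16.6 CPM in WT livers and 70.6 CPM in GR LKO livers (log2 change 2.07, SE 0.28, adjusted p = 0.00438) and a gene under 5 CPM. Of 9 tested on ctrl. 2 were higher, among them *Cfd*, which stood at 0.283, 0, 0 and 0 CPM in WT and at 2.57, 2.95, 35.0 and 6.81 CPM in GR LKO livers (adjusted p = 0.0338; lost without WT 1 [0.128], 2 [0.115], 3 [0.107], 4 [0.0973], GR LKO 4 [0.0588]). *Cfd* is also an adipocyte marker. The sum of adipocyte markers, nearly all *Car3*, was 324 CPM in WT livers and 1723 CPM in GR LKO livers on cal. res., and 2851 and 4685 CPM on ctrl. The PPARα targets split into 5 higher and 1 lower of 27 on cal. res. (median 0.06): the peroxisomal thiolase gene *Acaa1b* went from 490 to 1996 CPM (log2 change 2.02, adjusted p = 0.000800), *Acot2* from 5.43 to 18.9 CPM (1.78, adjusted p = 0.00467) and *Angptl4* from 263 to 76.5 CPM (-1.79, adjusted p = 0.000329). On ctrl. 1 of 26 was higher, the pantetheinase gene *Vnn1* (log2 change 1.47, adjusted p = 0.0233; lost without WT 3 [0.0692], GR LKO 1 [0.0618], 2 [0.0513]). In 1 fit over the diet *Vnn1* was not called (adjusted p = 0.0772; range over 5 settings 1.47e-06 to 0.0772).

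The HNF4α targets, like *Hnf4a*, were mostly lower where called. On cal. res. 1 of 24 was higher and 7 were lower (median -0.27), and on ctrl. 0 and 4 of 24 (median -0.18). *Apoa4* went from 208 to 41.6 CPM on cal. res. (log2 change -2.33, SE 0.22, adjusted p = 0.00113) and from 146 to 30.3 CPM on ctrl. (-2.27, SE 0.21, adjusted p = 0.00122). *Apoa1* had a log2 change of -1.32 on cal. res. (adjusted p = 0.000880), *Cyp2d9* of -0.49 on ctrl. (adjusted p = 0.0248; lost without WT 1 [0.0585], 2 [0.0678], 3 [0.0566], GR LKO 1 [0.0800], 2 [0.0629], 4 [0.0726]), and *Cyp8b1*, of bile acid synthesis, of 1.26 on cal. res. (adjusted p = 0.0207; lost without WT 3 [0.0725], GR LKO 1 [0.0502], 2 [0.0672], 3 [0.0606]). Among the settings, *Cyp2d9* on ctrl. was also not called without TMM (adjusted p = 0.0547), with the block (0.0677) or in 1 fit over the diet (0.229; range over 5 settings 3.06e-06 to 0.229), and *Cyp8b1* not in that fit (0.0517; range over 6 settings 2.51e-06 to 0.0725). Hepatocyte markers moved beside them: 5 of 7 were lower on cal. res. (median -0.76), with a sum of 182006 CPM in WT livers and 133798 CPM in GR LKO livers, and 2 of 7 on ctrl. *Apoa1*, *Ttr* and *Serpina1a* stand in both lists, so the counts are not separate. Kupffer cell markers were higher on cal. res., 4 of 8 with a median of 1.05 and a sum of 68.3 and 149 CPM, *Clec4f* being the most abundant, and 0 of 8 were called by edgeR on ctrl. Endothelial sums on cal. res. were 150 to 180 CPM in WT livers and 198 to 222 CPM in GR LKO livers, without overlap, and they did not overlap at ZT4 (153 to 177 and 203 to 238 CPM) and ZT8 (153 to 165 and 191 to 206 CPM) either. Their part in these results was not tested.

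Of the PXR and CAR targets 9 were higher and 3 lower of 25 on cal. res. (median 0.16). The glutathione transferase gene *Gsta1* went from 14.4 to 139 CPM (log2 change 3.26, adjusted p = 0.000749), the drug exporter *Abcb1a* from 20.01 to 52.2 CPM (1.37, adjusted p = 0.00186), *Sult1d1* from 440 to 150 CPM (-1.56, adjusted p = 0.000528) and *Por*, the electron donor of cytochrome P450 enzymes, from 1187 to 610 CPM (-0.97, adjusted p = 0.00182). On ctrl. 2 of 23 were higher and 1 lower (median -0.01). There *Cyp2b10* went from 1.42 to 9.22 CPM (log2 change 2.68, SE 0.33, adjusted p = 0.00344), *Cyp2b9* from 0.0982 to 15.5 CPM (adjusted p = 0.00413) and *Sult1d1* from 134 to 67.3 CPM (-0.99, adjusted p = 0.00302). Of 14 RORα targets 4 were higher and 5 lower on cal. res. (median -0.59), with *Nr1d1* and *Plin2* (0.84, adjusted p = 0.0176; lost without WT 2 [0.0574], GR LKO 2 [0.0564], 3 [0.0608]) among the higher and *Cry1* (-1.21, adjusted p = 0.00118) and *Clock* (-2.22, adjusted p = 0.00199) among the lower, and 0 of 11 were called by edgeR on ctrl. Of 23 ERRα targets 2 were lower on cal. res. (median -0.13), the respiratory chain genes *Cycs* (-0.67, adjusted p = 0.00200) and *Cox5a* (-0.44, adjusted p = 0.0105, and 0.0640 with the block; range over 6 settings 1.78e-06 to 0.0640), and 0 of 23 were called by edgeR on ctrl.

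A 24 h rhythm (JTK_CYCLE, a rank test with an exact null distribution) was called for 6 of 9 members in WT on ctrl., 5 in GR LKO on ctrl., 4 in WT on cal. res. and 5 in GR LKO on cal. res., against 24.7%, 21.6%, 21.3% and 19.6% of all genes tested. Many of the 20 calls need all mice. Leaving out the mice with replicate number 1, 2 or 3 from every group kept 7, 6 or 6 of them, and without number 4, which exists on ctrl. alone, 18 were called. Kept in each of those 4 runs were *Ppard* in both genotypes and *Nr1i3*, *Rxra* and *Esrra* in WT, all on ctrl. A sine and cosine fit in limma called 31 of 36, and its share of all genes was not counted.

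*Ppard* swung the most. In WT on ctrl. its mean was 6.90 ± 0.786 CPM at ZT8 (n = 4) and 52.0 ± 5.001 CPM at ZT0 (n = 3), a 7.53-fold range, with the peak at ZT0 (exact JTK adjusted p = 0.00154). In WT on cal. res. it ran from 4.71 ± 0.730 CPM at ZT12 to 40.3 ± 6.69 CPM at ZT20 (n = 3 each), an 8.55-fold range with the peak at ZT20 (exact adjusted p = 0.0126). So this receptor, scarce at ZT12, was several times more abundant late in the night. Without GR the range was 7.203-fold on ctrl. (exact adjusted p = 0.00108) and 5.74-fold on cal. res. (exact adjusted p = 0.0294).

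The sensor of drugs *Nr1i3* was the other member called in all 4 groups. In WT on ctrl. it ran from 134 ± 56.4 CPM at ZT0 to 391 ± 55.0 CPM at ZT12 (2.93-fold, exact adjusted p = 0.000546), and on cal. res. from 361 ± 15.3 CPM at ZT20 to 628 ± 127 CPM at ZT8 (1.74-fold, exact adjusted p = 0.0345). GR LKO livers spanned 3.24-fold on ctrl. (exact adjusted p = 0.00419) and 2.36-fold on cal. res. (exact adjusted p = 0.0137). Its relative *Nr1i2* peaked at ZT12 in WT on either diet (1.93-fold on ctrl., exact adjusted p = 0.0223, and 2.40-fold on cal. res., exact adjusted p = 0.0270) and in GR LKO on cal. res. (exact adjusted p = 0.0229), and was not called in GR LKO on ctrl. (exact adjusted p = 0.186).

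The partner *Rxra* kept within a 1.58-fold range of means in every group, and was called rhythmic in WT on ctrl. (exact adjusted p = 0.000305) and in GR LKO on either diet (0.0175 on ctrl. and 0.00333 on cal. res.). In WT on cal. res. it was not called (exact adjusted p = 0.107). *Hnf4a* was called in WT on ctrl. (530 to 666 CPM, exact adjusted p = 0.0329) and on cal. res. (524 to 963 CPM, exact adjusted p = 0.00962), each with the lowest mean at ZT0 and the highest at ZT12, and not in GR LKO livers (exact adjusted p = 1 and 0.141). *Esrra* was called on ctrl. alone, in WT (exact adjusted p = 0.00405) and GR LKO (0.0139), with the highest mean at ZT12. *Ppara* was called in GR LKO alone (exact adjusted p = 0.0111 on ctrl. and 0.00810 on cal. res.), although its means spanned 1.99-fold and 2.43-fold in WT. *Pparg* and *Rora* were not called in any group, with exact adjusted p from 0.0564 to 1. Being called in 1 genotype and not in the other shows no difference between them, which the next test addresses.

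That test, an interaction of group with sine and cosine of time in limma, called 0 of 9 members between genotypes on cal. res., against 0.652% of all genes, and 0 of 9 on ctrl., against 0.366%. At an unadjusted p under 0.05 in limma the members numbered 2 on each diet, beside 1576 of 13041 genes on cal. res. and 1260 of 12834 on ctrl.: *Pparg* (adjusted p = 0.208) and *Nr1i3* (adjusted p = 0.364) on cal. res., and *Pparg* (adjusted p = 0.388) and *Nr1i2* (adjusted p = 0.351) on ctrl. Between the diets in WT, 5 of 9 members were called, against 26.6% of all genes. There the diet cannot be told apart from the set of libraries.

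All 5 peaked earlier on cal. res. by the fitted curves. *Ppard* moved from ZT22.3 to ZT19.6 (adjusted p = 0.00275), *Nr1i3* from ZT12.7 to ZT8.84 (adjusted p = 0.00575), *Hnf4a* from ZT13.5 to ZT10.9 (adjusted p = 0.0197), *Nr1i2* from ZT14.0 to ZT10.6 (adjusted p = 0.0477) and *Rxra* from ZT11.1 to ZT7.71 (adjusted p = 0.0484). The amplitude of *Nr1i3* was 0.72 on ctrl. and 0.34 on cal. res., and that of *Hnf4a* 0.14 and 0.33, in log2-like VST units. *Rora* just missed the threshold (adjusted p = 0.0608). Leaving out replicate number 1, 2, 3 or 4 from every group left 3, 0, 2 and 3 calls. With replicate number as a block, and with all genes of at least 1 count, 3 calls were left each time. *Nr1i2* and *Rxra* also missed the threshold on log2 CPM (adjusted p = 0.0564 and 0.0552), and without number 2 all 5 did (adjusted p = 0.104 to 0.270).

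**Figure D3:**
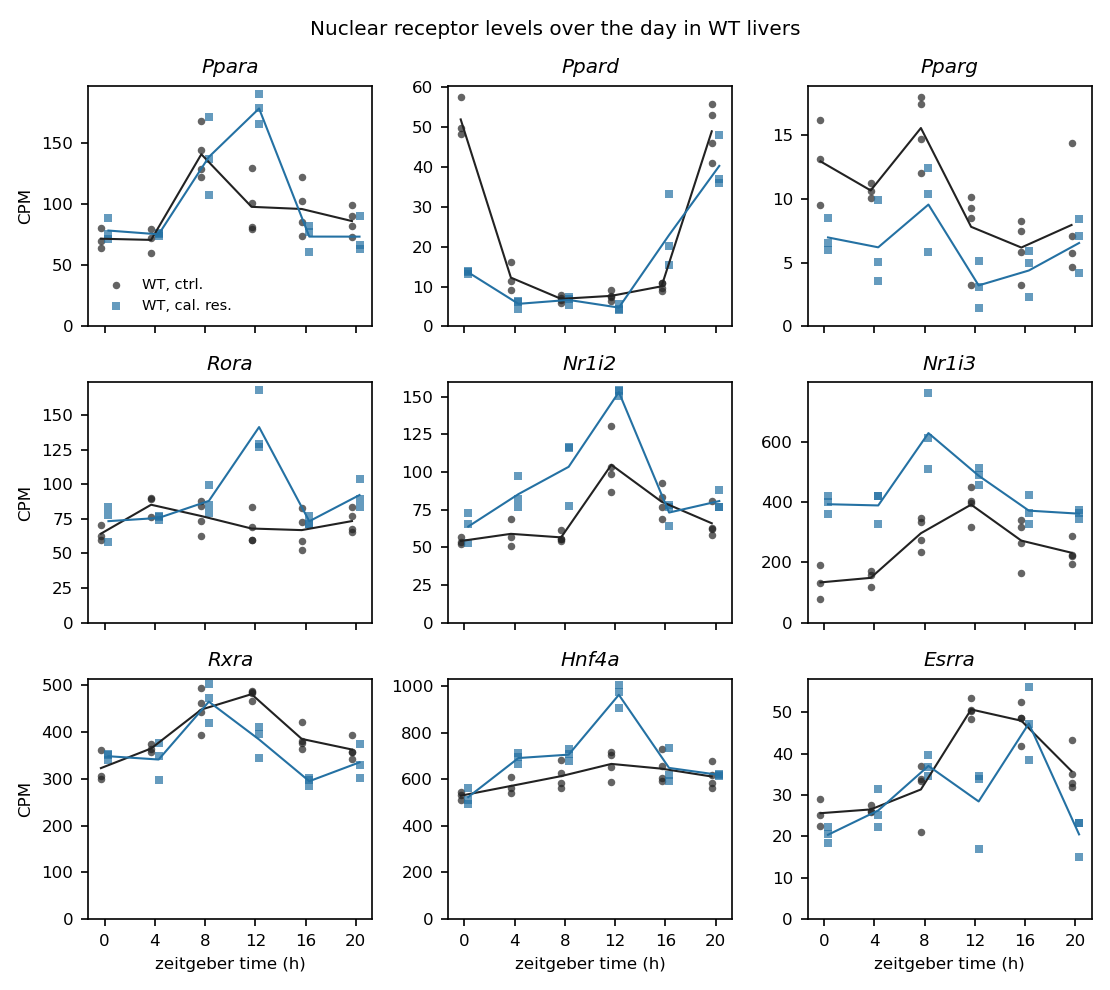
CPM of the 9 receptors in WT livers over the day on ctrl. and cal. res. (points are single livers, lines join the group means). *Ppard* swings 7.53-fold on ctrl. and 8.55-fold on cal. res., while *Rxra* stays within 1.58-fold.

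Their targets and relatives cycled in part. In WT on ctrl., where 24.7% of all genes were called, a rhythm was called for 11 of 15 RORα targets, 16 of 28 PPARα targets, 13 of 24 ERRα targets, 12 of 26 PXR and CAR targets, 8 of 24 HNF4α targets, 3 of 11 PPARγ targets, 8 of 22 coregulators and 10 of 35 other nuclear receptors. In WT on cal. res., beside 21.3% of all genes, the counts were 10 of 15, 7 of 28, 8 of 24, 10 of 26, 10 of 24, 1 of 10, 5 of 22 and 7 of 36 in the same order. Without GR on cal. res., beside 19.6%, they were 10 of 15, 10 of 28, 11 of 24, 15 of 26, 6 of 24, 1 of 11, 7 of 22 and 14 of 37, and on ctrl., beside 21.6%, 8 of 15, 10 of 28, 8 of 24, 8 of 25, 4 of 24, 2 of 11, 9 of 22 and 13 of 37. Clock genes such as *Arntl*, *Clock* and *Cry1* make up much of the RORα list.

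Over the 24 groups of the time series, with each diet centred on its own mean, some members ran together. As a description without a test, Pearson's r of the group means was 0.87 for *Nr1i3* and *Rxra*, 0.76 for *Ppara* and *Rxra*, 0.74 for *Nr1i2* and *Hnf4a* and -0.70 for *Ppard* and *Rxra*. Thus *Ppard* was high when the partner of its family was low. Among 8872 genes compared, those most like a member were *Pdk1* for *Ppara* (r = 0.91), *Rnf214* for *Rora* (0.87), *Ndufb9* for *Nr1i2* (0.93), *Stard5* for *Nr1i3* (0.94), *Bri3* for *Rxra* (0.91), *Baz1a* for *Hnf4a* (0.88) and *Rabl6* for *Esrra* (0.90). The nearest to *Pparg* were *Sh3bgrl2*, *Hyi* and *Acaa1b* (0.91, 0.91 and 0.90), of which *Acaa1b* is in the list of PPARα targets. The points share libraries, and time of day moves many genes together.

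The members lie apart in the genome (mouse build GRCm38): *Nr1i3* (ENSMUSG00000005677, chr1:171213970-171220701, plus strand), *Rxra* (ENSMUSG00000015846, chr2:27676440-27762957, plus strand), *Hnf4a* (ENSMUSG00000017950, chr2:163506808-163572910, plus strand), *Pparg* (ENSMUSG00000000440, chr6:115360951-115490399, plus strand), *Rora* (ENSMUSG00000032238, chr9:68653786-69388246, plus strand), *Ppara* (ENSMUSG00000022383, chr15:85734983-85802819, plus strand), *Nr1i2* (ENSMUSG00000022809, chr16:38248323-38294824, minus strand), *Ppard* (ENSMUSG00000002250, chr17:28232700-28301474, plus strand) and *Esrra* (ENSMUSG00000024955, chr19:6910977-6921813, minus strand). RefSeq (GRCm38.p6) gives 13 promoters for the 9 genes, each from 250 bases before to 50 after a start, and 6 motifs were searched on both strands of them and of 32851 mouse promoters. AGGTCA, the core element of nuclear receptors, is in 3 of the 13 and in 16.3% of all, AGAACA, the core of GR elements, in 1 of the 13 (*Nr1i2*) and in 19% of all, and CACGTG, the E-box of clock factors, in 1 of the 13 (*Nr1i3*) and in 7.15% of all. AGGTCANAGGTCA, the spaced repeat that PPAR and RXR pairs bind (0.0396% of all; it contains AGGTCA), TTATGTAA, the D-box (0.938%), and CAAAGTCCA, an HNF4 element (0.475%), are in 0 of the 13. A match is a description of letters and no evidence of binding.

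The 3 promoters of *Pparg*, the member with most calls for GR loss, are shown with 1 of 2 promoters each of *Rxra* and *Hnf4a*, which rose with CORT. Capitals mark AGGTCA or its reverse complement TGACCT, and all runs read 5′ to 3′ on the plus strand. The *Pparg* runs lie at chr6:115360894-115361193, chr6:115362099-115362398 and chr6:115421816-115422115, that of *Rxra* at chr2:27709042-27709341 and that of *Hnf4a* at chr2:163546905-163547204.
Pparg promoter 1: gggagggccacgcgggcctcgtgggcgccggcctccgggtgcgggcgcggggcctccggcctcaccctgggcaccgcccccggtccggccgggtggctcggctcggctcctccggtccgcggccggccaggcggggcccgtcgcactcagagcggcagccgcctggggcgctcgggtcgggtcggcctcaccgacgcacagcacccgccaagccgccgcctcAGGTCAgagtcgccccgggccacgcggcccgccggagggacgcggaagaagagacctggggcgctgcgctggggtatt
Pparg promoter 2: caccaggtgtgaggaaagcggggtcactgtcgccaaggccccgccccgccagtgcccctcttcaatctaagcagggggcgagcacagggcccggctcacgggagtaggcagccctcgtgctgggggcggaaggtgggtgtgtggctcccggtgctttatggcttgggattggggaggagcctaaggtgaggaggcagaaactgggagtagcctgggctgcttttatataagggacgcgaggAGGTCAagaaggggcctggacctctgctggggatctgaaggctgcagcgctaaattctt
Pparg promoter 3: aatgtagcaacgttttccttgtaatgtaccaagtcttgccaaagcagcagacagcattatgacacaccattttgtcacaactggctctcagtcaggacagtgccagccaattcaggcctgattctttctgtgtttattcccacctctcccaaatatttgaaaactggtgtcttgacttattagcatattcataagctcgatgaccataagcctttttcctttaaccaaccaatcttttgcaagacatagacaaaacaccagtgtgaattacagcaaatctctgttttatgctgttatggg
Rxra promoter 2: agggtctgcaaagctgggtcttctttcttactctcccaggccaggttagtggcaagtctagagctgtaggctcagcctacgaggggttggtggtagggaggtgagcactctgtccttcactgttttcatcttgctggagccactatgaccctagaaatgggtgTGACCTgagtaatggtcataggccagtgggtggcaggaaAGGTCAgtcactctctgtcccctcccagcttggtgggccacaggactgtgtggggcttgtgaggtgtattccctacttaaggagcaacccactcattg
Hnf4a promoter 2: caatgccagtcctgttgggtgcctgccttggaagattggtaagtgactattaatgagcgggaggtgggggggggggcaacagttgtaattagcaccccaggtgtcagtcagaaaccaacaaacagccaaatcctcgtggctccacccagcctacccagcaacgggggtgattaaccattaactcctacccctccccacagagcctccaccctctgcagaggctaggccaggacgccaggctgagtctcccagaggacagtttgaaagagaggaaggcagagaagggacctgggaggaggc
The motif stands in the first and second promoters of *Pparg* and on both strands of the second of *Rxra*. It is absent from the third promoter of *Pparg*, from the first of *Rxra* (not shown) and from both of *Hnf4a*, of which the second is shown.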

How the data were processed

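Poly(A) RNA of whole mouse liver was sequenced in 90 libraries. The authors deposited estimated counts per gene, made with Salmon (mm10) and summed with tximport, without normalization, and these values were tested. Members and lists were chosen with earlier results of these data known. In R 4.3.3, genes were kept by filterByExpr (minimum count 10), scaled by TMM, fitted with edgeR 4.0.16 (quasi-likelihood) and adjusted by Benjamini and Hochberg over all genes tested. A prior count of 2 was used for log2 CPM and not in the fits. Each comparison had its own fit, on single mice as replicates. Rhythms were tested with JTK_CYCLE (exact null distribution, period 24 h, amplitude of at least 0.1 after the variance stabilizing transformation, VST) and compared with limma 3.58.1. Alternatives were DESeq2 1.42.0, no TMM, no filter, replicate number as a block, a fit over all libraries of a diet, the time-series libraries for diet, log2 CPM, removal of the libraries with pancreas markers (decided after seeing the data) and leaving out each library or replicate number. The fits were tested on simulated data. Counts of IDs without a symbol (410 IDs, 0.107% of counts) stayed in the tests. Genes were named in lists from a mean of 5 CPM in either group, up to 2 per direction.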

Additional observations from a re-analysis of the deposited data

Results flagged for a closer look

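*Ppara* in GR LKO livers on ctrl. at ZT8 was at 120.551 CPM in replicate 3, while the other 3 livers lay between 159.713 and 164.615 CPM. Its gap to the nearest liver was 0.889 of the range of the group, more than Dixon's test allows. Among 54 groups of 4 livers tested this was the sole case, and chance gives about 1 in 20.

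The daily rhythm of 5 receptors differed between the diets in WT livers by the interaction test in limma: *Ppard* (adjusted p = 0.00274608), *Nr1i3* (adjusted p = 0.00574673), *Hnf4a* (adjusted p = 0.0196855), *Nr1i2* (adjusted p = 0.0477177) and *Rxra* (adjusted p = 0.0484162). In each case the fitted peak came earlier on cal. res., as it did for *Ppara*, *Pparg* and *Esrra*, which were not called. Diet coincides with the set of libraries in the time series, and the cause was not tested.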

How the results depend on the processing

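The 5 calls for diet were 5 with DESeq2, without TMM, without the filter or with replicate number as a block, and 5 to 6 without any 1 library. With the WT libraries of the time series at ZT12 instead, 7 were called, *Ppard* reversed to -0.713212 and *Nr3c1* to 0.24954 (log2; each called, adjusted p = 0.0148 and 0.0328), and the cause was not tested. For CORT, 2 calls became 4 with DESeq2, 0 with the block and 0 to 2 without any 1 library. For GR loss on cal. res., 5 calls became 18 with DESeq2, 8 without TMM and 12 with 1 fit over the diet, and the cause was not tested. With the block the count was 5 again, but 2 *Pparg* calls were lost (ZT0, adjusted p = 0.118, and ZT8, 0.130) and *Ppard* at ZT16 (0.0172) and *Pparg* at ZT20 (0.0461) gained. On ctrl., 4 calls became 0 with the block and lay between 2 and 4 without any 1 library. The block and the smaller groups use up degrees of freedom, and replicate numbers gave no pairing to follow, since in 0 of 14 comparisons every same-numbered pair had a correlation over 0.1. The interaction had 0 calls by edgeR and DESeq2 under every setting. The 20 rhythm calls became 31 with the limma curve and 6 to 18 without any 1 replicate number, which leaves fewer mice. The 5 rhythm differences became 3 on log2 CPM, 3 with all genes of at least 1 count, 3 with the block and 0 to 3 without any 1 replicate number. Shares of all genes were counted for the main tests alone, so the counts of calls under other settings have no such share beside them. Over all results compared, other settings kept direction and side of the threshold in 1479 cases, gained a call in 47, lost it in 40 and reversed in 2. Leaving out libraries kept 2191, gained 6, lost 157 and reversed 0. The lowest estimated count in a library was 26.1 for *Pparg* and 59.0 for *Ppard*, and the libraries held 10057544 counts and more. Depth was not compared with other limits.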
